A study of Mus musculus with 20 samples.

Results

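Genomic imprinting leaves a small number of genes active from one parental copy only, and each imprinted domain is governed by a control region whose DNA is methylated on the copy from one parent and not on the other. At most of these regions the mark is laid down in the egg (Snrpn, Peg3, Kcnq1ot1, Mest, Peg10, Nnat, Grb10, Plagl1 and, in the Gnas domain, the Nespas-Gnasxl and exon 1A regions), and at the H19 control region it is laid down in sperm. Several of the genes, among them Gnas, Grb10, Peg3 and Nnat, are known for imprinted expression in brain, and Gnas and Peg3 for effects on feeding, energy balance and maternal care.

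Intervals of the deposited table were taken if they overlapped one of 10 windows of 20 to 90 kb on mm9 around these loci. The rule uses position only, but it was chosen with earlier results of these data known. The windows held 24 of the 50782 intervals in the table. Of the windows, 6 held an interval: Gnas 14, Grb10 5, H19 2, and Peg3, Mest and Nnat 1 each. The windows at Snrpn, Kcnq1ot1, Peg10 and Plagl1 held none, so these loci are not analysed here. Of the 24 intervals, 18 had enough reads to be tested, 11 of them at Gnas and 2 each at Grb10 and H19. The other 6 lay at Gnas and Grb10, and 4 of these had no read in any library.

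The tissue was hypothalamus of male inbred C57BL/6 mice, with no transgene or treatment in any group. Nuclei from postnatal day 0 (P0) or day 21 (P21) were sorted on NeuN, a protein of neuronal nuclei, and the NeuN-negative fraction is called non-neurons here. Each of the 4 groups (P0 neurons, P0 non-neurons, P21 neurons, P21 non-neurons) had 5 libraries, with 2 hypothalami pooled for each. The assay removes CCCGGG sites that lack methylation by a SmaI digest, then opens the methylated ones with XmaI and ligates adaptors to those ends, so a stretch between neighbouring sites is amplified when both of its ends are methylated. The value of an interval is its read count scaled to a common library size (CPM, with TMM factors), a relative measure that also depends on interval length. It is not a percent of methylated molecules. In an inbred strain reads carry no sign of their parental copy, so the copies were not measured separately. DNA reads hold no expression, and the sort was not checked against marker genes here.

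Libraries held 5663740 to 9998110 reads, with the deepest in P21 neurons (7810593 to 9998110), and replicates of a group correlated at r = 0.964 to 0.983 across tested intervals. On the third principal component, P0 neuron replicates 1 to 3 scored 30.2 to 44.2 and replicates 4 and 5 -18.9 and -15.7. P0 non-neuron replicates 1 to 3 scored -16.2 to 9.22 and replicates 4 and 5 -27.2 and -42.6, and no label names a batch. Calls that change when P0 replicates 4 and 5 are left out are named with their value.

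CCCGGG sites decide what this assay can read, so the promoter windows that hold one are shown first. RefSeq promoter windows (250 bases before to 50 after a start, GRCm38.p6) were matched for 8 of the 10 genes, all except H19 and Peg10, with 17 windows in all. CCCGGG, which reads the same on both strands, occurred in 3 of the 17, at the most downstream Gnas start and at both Grb10 starts, against 13.5% of all 32851 windows. The windows are on GRCm38.p6 and the measured intervals on mm9, so no interval was placed on them. Capitals mark the CCCGGG site.
Gnas, most downstream start, chr2:174329756-174330055, plus strand: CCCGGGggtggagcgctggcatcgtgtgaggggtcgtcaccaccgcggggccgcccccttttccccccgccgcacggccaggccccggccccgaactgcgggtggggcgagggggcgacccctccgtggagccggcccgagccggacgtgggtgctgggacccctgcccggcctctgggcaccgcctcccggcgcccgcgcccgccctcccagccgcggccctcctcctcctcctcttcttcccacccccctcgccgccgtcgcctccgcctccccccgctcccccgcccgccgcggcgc
Grb10, upstream start, chr11:12037371-12037670, minus strand: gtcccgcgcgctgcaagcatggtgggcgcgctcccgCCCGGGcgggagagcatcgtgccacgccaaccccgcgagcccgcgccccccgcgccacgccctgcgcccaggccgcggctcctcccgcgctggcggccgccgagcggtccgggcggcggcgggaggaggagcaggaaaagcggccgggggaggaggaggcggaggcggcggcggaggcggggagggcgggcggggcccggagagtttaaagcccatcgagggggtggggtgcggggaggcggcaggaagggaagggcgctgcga
Grb10, downstream start, chr11:12027922-12028221, minus strand: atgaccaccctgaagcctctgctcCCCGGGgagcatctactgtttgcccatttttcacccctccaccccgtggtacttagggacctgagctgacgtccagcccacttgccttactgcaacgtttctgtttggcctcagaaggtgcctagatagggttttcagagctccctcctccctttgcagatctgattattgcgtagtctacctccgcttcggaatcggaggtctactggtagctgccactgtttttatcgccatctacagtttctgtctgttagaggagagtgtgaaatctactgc
These windows differ in their CpG content, with 40 CpG dinucleotides in the Gnas window and 45 and 9 in the upstream and downstream Grb10 windows.

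A second motif, TGCCGC (searched on both strands, with no overlap with CCCGGG), is the core of the methylated sequence bound by ZFP57, a zinc finger protein that keeps imprinted methylation in place in the embryo. It occurred in 6 of the 17 windows, from 5 genes (Mest, Nnat, Grb10, Snrpn and Plagl1), against 11.6% of all windows. Both of the neighbouring Mest windows that overlap each other are among the 6. The Mest and Nnat windows are shown because both loci have a measured interval, with the motif, here on the opposite strand as GCGGCA, in capitals.
Mest, chr6:30737800-30738099, plus strand: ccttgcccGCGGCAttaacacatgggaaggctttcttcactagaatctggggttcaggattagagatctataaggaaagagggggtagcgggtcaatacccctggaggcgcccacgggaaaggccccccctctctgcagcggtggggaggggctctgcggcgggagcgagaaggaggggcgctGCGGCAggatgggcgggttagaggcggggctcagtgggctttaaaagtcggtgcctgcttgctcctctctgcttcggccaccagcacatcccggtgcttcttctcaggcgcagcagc
Nnat, chr2:157559828-157560127, plus strand: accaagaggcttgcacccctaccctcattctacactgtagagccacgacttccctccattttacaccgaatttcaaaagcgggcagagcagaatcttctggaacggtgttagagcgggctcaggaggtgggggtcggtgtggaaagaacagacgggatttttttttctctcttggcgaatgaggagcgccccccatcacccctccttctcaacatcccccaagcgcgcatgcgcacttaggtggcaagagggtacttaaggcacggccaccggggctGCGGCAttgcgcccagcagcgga
A match is a description of these letters only.

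The Gnas domain, which encodes the stimulatory G protein alpha subunit and several imprinted transcripts, held 14 of the 24 intervals. Positions of the control regions were placed on mm9 from general knowledge and not checked against an annotation. The Nesp region of Gnas was counted with the control regions here. On that placement 14 of the 24 intervals overlapped a counted region, 11 of them at Gnas and 1 each at Peg3, Mest and Nnat. From upstream to downstream, the Gnas intervals first covered the Nesp region, where the paternal copy is methylated, as 3 intervals that share cut sites (chr2:174110188-174110632, chr2:174110632-174113219 and chr2:174113219-174116201). The third of these lay mostly outside the region as placed, and is counted with it here. Next came the Nespas-Gnasxl region, methylated on the maternal copy, as 5 intervals between chr2:174123792 and chr2:174125756. Last came the exon 1A region, also methylated on the maternal copy, from chr2:174153896 on.

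Mean levels of the 11 tested Gnas intervals ran from 1.06 to 185.7 CPM. Since these differ in length, each was ranked among all intervals of the table whose length was within a factor of 1.25 of its own. In the Nespas-Gnasxl region, the 398-bp interval chr2:174125152-174125550 averaged 185.7 CPM over the 20 libraries, above 97.1% of 4474 intervals of like length. Its neighbour of 206 bp, chr2:174125550-174125756, averaged 45.4 CPM, above 99.3% of 5076 intervals. The 955-bp interval chr2:174123972-174124927 averaged 181.1 CPM, above 90.1% of 5255 intervals. The 444-bp Nesp interval averaged 106.8 CPM, above 87.3% of 4489 intervals. In the exon 1A region the 942-bp interval chr2:174153896-174154838 had a middling rank, with 30.0 CPM, above 54.9% of 5242 intervals. Among tested intervals of like length only, these ranks were 94.3%, 98.1%, 87.3%, 76.5% and 41.8%, in the same order.

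The shortest intervals inside the well-covered region were themselves poorly covered, unlike the 206-bp interval at 45.4 CPM. The 180-bp interval chr2:174123792-174123972 and the 189-bp interval chr2:174124963-174125152 share a cut site with the 955-bp and the 398-bp interval, yet averaged 2.02 and 1.33 CPM. The median interval of like length had 0.043 and 0.047 CPM, so they ranked above 85.6% and 81.8% of their length class. Among the tested intervals of that class, they ranked above 26.5% and 9.87%. Levels of intervals of unlike length are therefore not compared further, apart from ratios of Gnas regions that are followed from group to group.

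Further along the exon 1A region the reads ran out. The 419-bp interval chr2:174154838-174155257 averaged 5.03 CPM, while the next one, chr2:174155257-174155577, had 7 reads in all 20 libraries together. The intervals chr2:174155577-174155946 and chr2:174155967-174156103 had 0 reads in 20 libraries. A count of 0 allows up to 0.089 CPM in P0 neurons and 0.0667 CPM in P21 neurons (3 reads over the raw read total of the group, without TMM factors, counting error only). At 12479 bp past these, the 2942-bp interval chr2:174168582-174171524 had 158 reads in all.

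**Figure D1:**
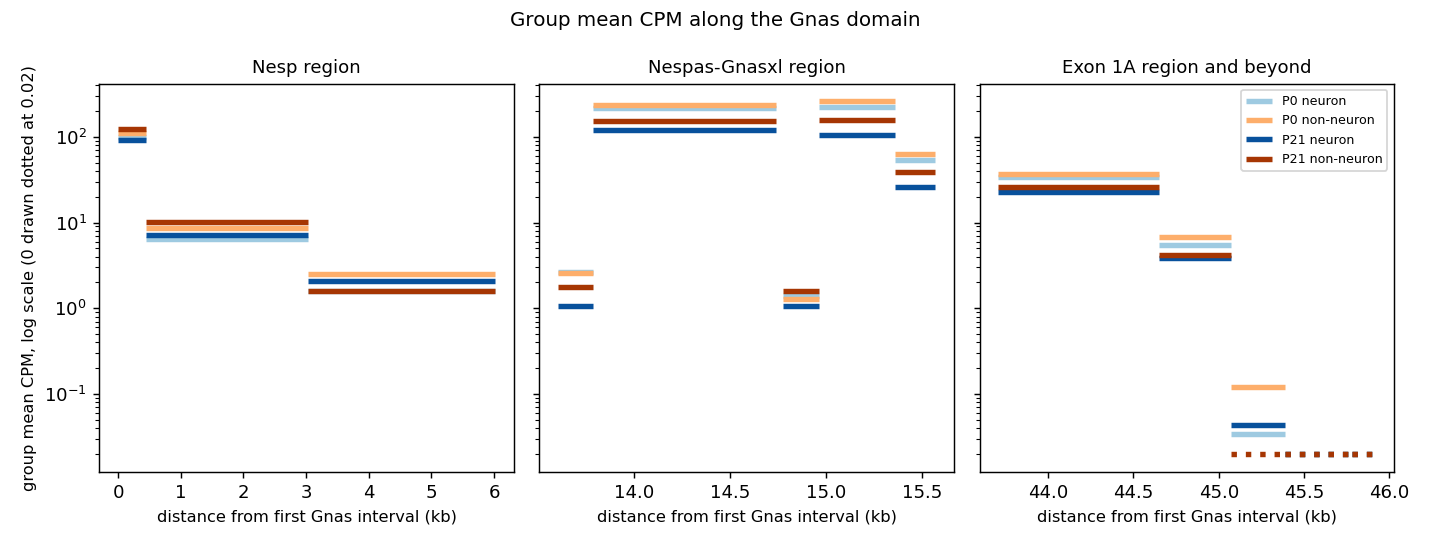
Group mean CPM (log axis) of 13 of the 14 Gnas intervals, each drawn to scale as a bar at its distance in kb from the first interval, with 1 colour per group of 5 libraries; the interval at 174168582 is not drawn, and means of 0 are dotted at 0.02. In the Nespas-Gnasxl panel the P21 bars of the 3 well-covered intervals lie below the P0 bars, in the Nesp panel the bars of the first interval lie close together, and past the exon 1A region reads run out.

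At birth no tested interval of these loci was called different between neurons and non-neurons in the main fit, which had no replicate block. Of 18 intervals, edgeR called 0 at P0 (p adjusted by Benjamini-Hochberg across the 26679 tested intervals of the table, threshold 0.05), against 9.79% of all tested intervals (6.92% higher and 2.87% lower in neurons). DESeq2 and limma-voom called 0 as well, and 4 of the 18 had an unadjusted p under 0.05. No interval had all 5 neuron libraries on one side of all 5 non-neuron libraries, against 9.39% of all tested intervals. Log2 fold changes (neurons minus non-neurons) ran from -0.62 to 0.52, with a median of -0.14 (0.01 over all tested intervals).

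For the well-covered intervals the difference had a narrow interval. The 398-bp Nespas-Gnasxl interval had a log2 fold change of -0.23 (95% interval -0.45 to -0.0018) and the 444-bp Nesp interval -0.15 (-0.36 to 0.06). The 316-bp Grb10 interval was at -0.03 (-0.31 to 0.25). The 398-bp interval and its 206-bp neighbour (-0.26 ± 0.12) were each called at P0 in 3 of 13 other settings. For both, a replicate block within each age was among these (-0.22 and -0.25, edgeR adjusted p = 0.00567 and 0.0407). For Peg3 the interval of the difference was wide (0.08, from -0.63 to 0.79), with 3 to 15 reads in each P0 neuron library.

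With age, 4 of the 5 Nespas-Gnasxl intervals were called lower in neurons and 3 of the 5 in non-neurons, and no Nesp interval was called lower. Of all tested intervals, 26.3% and 25.8% were called lower, and at 41.6% and 35.5% the groups did not overlap. The 180- and 955-bp intervals share a cut site, and so do neighbours among the 189-, 398- and 206-bp intervals, which start 36 bp further on. The 5 are therefore not separate counts. In the 398-bp interval, P0 neurons had 204, 205, 283, 203 and 216 CPM in replicates 1 to 5. P21 neurons had 107, 77.8, 112, 118 and 111 CPM, all below all P0 neurons. P0 non-neurons had 220, 235, 319, 275 and 250 CPM, and P21 non-neurons 145, 127, 180.0, 160 and 168, again with no overlap. The log2 fold change was -1.08 ± 0.11 in neurons (SE; edgeR adjusted p = 2.55e-10) and -0.73 ± 0.11 in non-neurons (adjusted p = 8.54e-07), or a fall to 0.472-fold and 0.601-fold. Over the 12 other settings the log2 values ranged from -1.17 to -0.74 and from -0.77 to -0.41, all called.

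Of the other 4 intervals of the region, the 206- and 955-bp intervals fell in both cell types. The 206-bp interval went from 53.3 ± 7.50 to 25.9 ± 3.43 CPM in neurons (SD, n = 5 each) and from 63.7 ± 10.5 to 38.9 ± 5.83 CPM in non-neurons. The 955-bp interval had 217, 242, 218, 191 and 206 CPM in P0 neurons and 126, 92.6, 126, 142 and 116 CPM in P21 neurons. In non-neurons it went from 235 ± 11 to 154 ± 28.3 CPM. Groups did not overlap in any of these age comparisons, and log2 fold changes were -1.04 and -0.71 for the 206-bp and -0.83 and -0.61 for the 955-bp interval, in neurons and non-neurons. For the 955-bp interval they ranged from -0.92 to -0.49 and from -0.64 to -0.29 over 12 other settings, all called. The small 180-bp interval fell in neurons from 2.68 ± 1.14 to 1.07 ± 0.41 CPM (log2 fold change -1.33, SE 0.40, edgeR adjusted p = 0.00502). It was at -0.57 ± 0.39 in non-neurons, where it was not called. Without P21 non-neuron replicate 1 that value was -1.04 (adjusted p = 0.0288). The 189-bp interval, which shares a cut site with the 398-bp interval, was called in neither cell type, at -0.43 ± 0.41 in neurons (adjusted p = 0.376) and 0.28 ± 0.40 in non-neurons (adjusted p = 0.576).

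In the exon 1A region the 942-bp interval fell in both cell types and the 419-bp interval in non-neurons. The 942-bp interval, chosen for description after its values were seen, as were the 444-, 955-, 2587- and 419-bp Gnas intervals, had 28.2, 31.0, 41.1, 34.0 and 37.6 CPM in P0 neurons and 28.8, 17.6, 20.9, 27.5 and 19.8 CPM in P21 neurons. In non-neurons it went from 36.5 ± 5.16 to 26.2 ± 4.95 CPM (SD, n = 5 each). Single libraries of the groups overlapped in both cell types. Log2 fold changes were -0.59 ± 0.14 in neurons (edgeR adjusted p = 0.000363) and -0.48 ± 0.14 in non-neurons (adjusted p = 0.00363). The call in non-neurons was lost with library totals as the only scaling (-0.26, adjusted p = 0.0912) and with the length trend removed (-0.21, adjusted p = 0.226). The 419-bp interval that shares a site with it was called in non-neurons (-0.69 ± 0.24, adjusted p = 0.0134) and not in neurons (-0.49 ± 0.24, adjusted p = 0.0767). Its call in non-neurons was lost without P21 non-neuron replicate 2 (adjusted p = 0.053) and in 3 of 12 other settings, among them P0 replicates 1 to 3 only (-0.62, adjusted p = 0.0628). In neurons it was called without P21 neuron replicates 1 or 4, each left out alone (adjusted p = 0.0241 and 0.0412), and in 4 of 12 other settings.

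The Nesp intervals gave no call with age. In the 444-bp interval, P0 neurons had 103, 107, 110.3, 82.0 and 96.5 CPM and P21 neurons 97.4, 70.9, 106, 93.0 and 93.4. P0 non-neurons had 112, 108, 119, 125 and 90.3 CPM and P21 non-neurons 126, 103, 148, 119 and 127. The groups overlapped in both cell types. Log2 fold changes were -0.11 (95% interval -0.32 to 0.10) in neurons and 0.17 (-0.04 to 0.38) in non-neurons. When the trend with interval length was taken out of each library the value in neurons turned to 0.18 (adjusted p = 0.0481). In non-neurons it was then 0.44 (adjusted p = 7.35e-06), and it was called there at 0.39 with library totals as the only scaling and with a cyclic loess correction. The 2587- and 2982-bp Nesp intervals were at 0.17 and 0.35 in neurons and 0.22 and -0.64 in non-neurons, none of them called. The 2587-bp interval was called in non-neurons with library totals as the only scaling (0.45, adjusted p = 0.0325). Without P21 non-neuron replicate 2 the 2982-bp value in non-neurons was -1.01 (adjusted p = 0.0483).

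**Figure D2:**
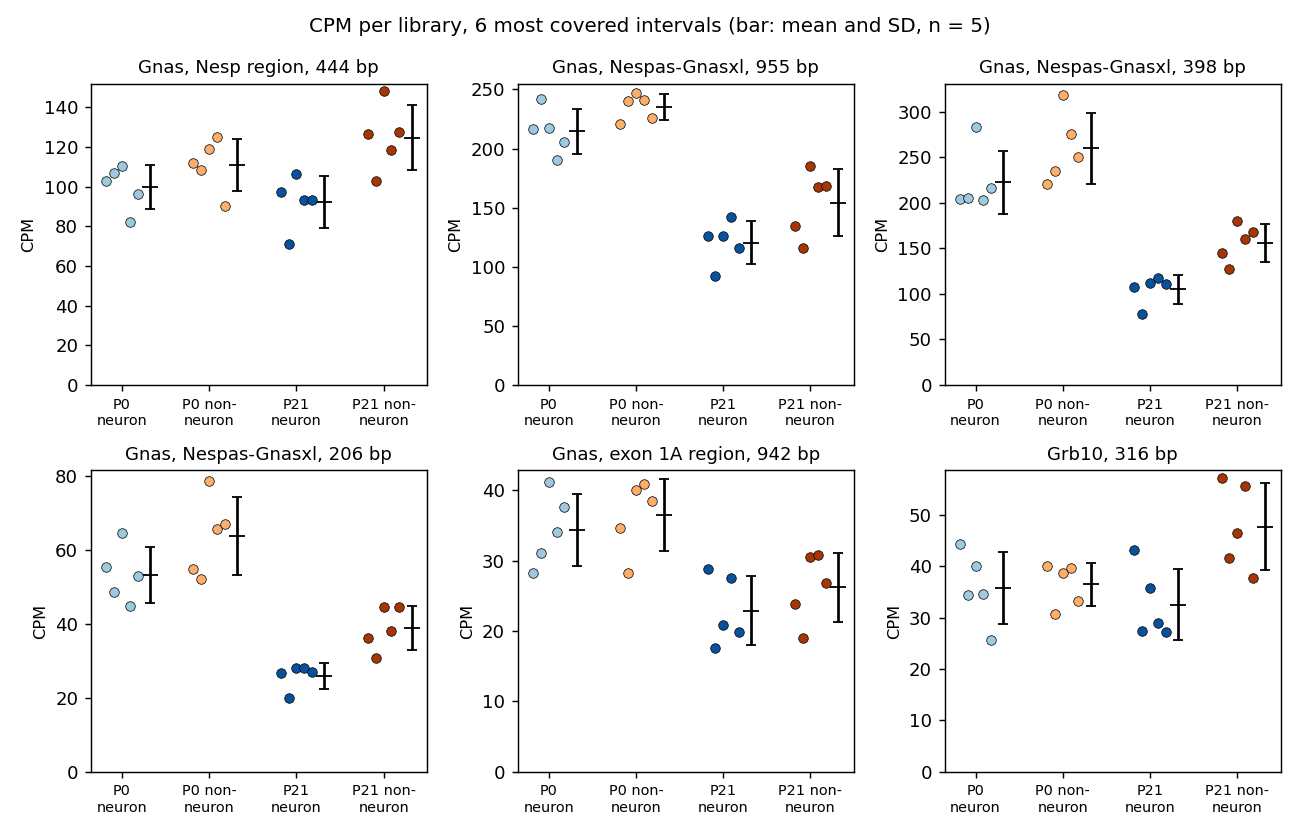
CPM of each library (points) in the 6 most covered intervals by group, with the mean and SD (n = 5) beside each group and axes from 0. In the 3 Nespas-Gnasxl panels both P21 groups lie below both P0 groups of the same cell type with no overlap, while in the Nesp panel P0 and P21 libraries of a cell type overlap.

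Because each library measures all of these regions together, their ratio within a library needs no scaling for library depth. A trend with interval length that differs between libraries stays in the ratio, since the regions hold intervals of unlike length. Its part in the ratios was not tested. Reads in the Nesp region were divided by reads in the Nespas-Gnasxl region, each summed over its tested intervals, a measure added after the data were seen. The log2 ratio was -2.20 ± 0.07 in P0 neurons and -1.32 ± 0.11 in P21 neurons (SD, n = 5 each), with no overlap, a 1.84-fold rise (exact permutation test, two-sided, p = 0.00794, and 0.0476 after adjustment over 12 ratio tests). In non-neurons it was -2.21 ± 0.17 and -1.37 ± 0.13, a 1.79-fold rise with the same p-values. The p of 0.00794 is the smallest that 5 libraries against 5 can give. Without any 1 library the rise stayed between 0.78 and 0.92 on the log2 scale, while the smallest possible p was then 0.0159 and the adjusted exact p (0.0477 to 0.0954) passed in 1 of 20 such fits. Between cell types the ratio differed by 0.01 at P0 (exact permutation p = 0.929) and 0.05 at P21 (p = 0.587) on the log2 scale.

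Ratios with the exon 1A region did not pass the correction. Nesp over exon 1A was higher at P21 by 0.50 in neurons (exact permutation p = 0.0476, adjusted p = 0.0952) and by 0.68 in non-neurons (p = 0.0159, adjusted p = 0.0636). Nespas-Gnasxl over exon 1A was lower at P21 by -0.38 in neurons (exact permutation p = 0.0397, adjusted p = 0.0952) and by -0.16 in non-neurons (p = 0.175). With only the most covered interval of each region, adjusted p was 0.0238 for Nesp over exon 1A in non-neurons (0.65) and for Nespas-Gnasxl over exon 1A in neurons (-0.48). Without P21 non-neuron replicate 4 it was 0.0477 for the former over all tested intervals (0.78) and for Nespas-Gnasxl over exon 1A between cell types at P21 (-0.34).

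**Figure D3:**
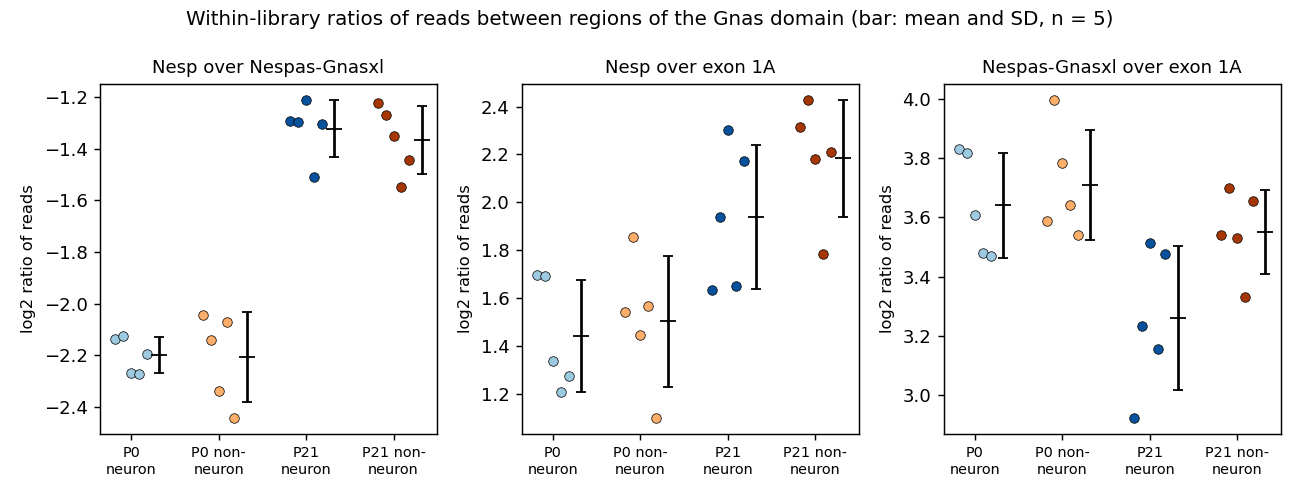
Log2 ratio of reads between pairs of Gnas regions within each library (points), with the mean and SD (n = 5) beside each group. In the first panel all 10 P21 libraries lie above all 10 P0 libraries (highest at P0 -2.05, lowest at P21 -1.55), and the cell types overlap at each age.

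Among the less covered loci, Peg3 gained reads with age in both cell types. Peg3 encodes a zinc finger protein, and its interval of 2172 bp, chr7:6682651-6684823, overlaps the control region as placed. P0 neurons had 1.03, 2.24, 0.53, 2.56 and 2.27 CPM and P21 neurons 4.29, 3.59, 4.49, 4.16 and 3.38. P0 non-neurons had 1.83, 2.08, 1.22, 0.92 and 2.33 CPM and P21 non-neurons 5.14, 3.08, 5.17, 6.78 and 6.20. All P21 libraries lay above all P0 libraries of their cell type, with log2 fold changes of 1.18 ± 0.30 (edgeR adjusted p = 0.00107) and 1.67 ± 0.30 (adjusted p = 1.31e-05). Over the 12 other settings these ranged from 0.89 to 1.59 and from 1.45 to 1.88, all called.

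H19, a non-coding RNA made from the maternal copy, had 2 intervals, neither of which overlapped its control region as placed, so that region itself is not analysed here. The 2153-bp interval chr7:149761915-149764068 lay on one side of it and the 2584-bp interval chr7:149771180-149773764 on the other, 7112 bp apart. The first fell in non-neurons from 4.87, 6.07, 5.15, 9.22 and 5.91 CPM to 3.61, 1.68, 2.34, 1.94 and 1.40 CPM, with no overlap. Its log2 fold change was -1.51 ± 0.27 (SE; edgeR adjusted p = 8.28e-06), or 0.351-fold. In neurons it went from 4.32 ± 1.19 to 2.90 ± 0.46 CPM, which was not called (-0.57 ± 0.26, adjusted p = 0.0593). That value passed the threshold in 6 of the 12 other settings, with adjusted p from 0.00329 to 0.332, and without P0 neuron replicate 2 (-0.72, adjusted p = 0.0199). The second interval was at 0.25 ± 0.23 in neurons and -0.21 ± 0.23 in non-neurons, neither called. With P0 replicates 1 to 3 only, it was called in neurons (0.65, adjusted p = 0.0314). The difference between the age changes of the first interval was 0.94 ± 0.37 (adjusted p = 0.0911), and 1.18 (adjusted p = 0.0249) without P21 non-neuron replicate 1.

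Mest, a hydrolase-like gene active from the paternal copy, showed a large spread between replicates in its 2358-bp interval, chr6:30686488-30688846. P0 neurons had 9.13, 6.57, 9.98, 19.3 and 15.6 CPM and P0 non-neurons 10.8, 10.1, 7.72, 20.1 and 15.8, so that replicates 4 and 5 were the highest in both groups. P21 neurons had 6.05, 7.01, 4.79, 5.25 and 5.96 CPM. P21 non-neurons had 19.2, 8.11, 8.13, 6.64 and 8.54 CPM, with replicate 1 far above the others. The log2 fold change with age in neurons was -1.05 ± 0.32 (edgeR adjusted p = 0.00723), and with P0 replicates 1 to 3 only it was -0.55 (adjusted p = 0.0751). In non-neurons it was -0.35 ± 0.30 (adjusted p = 0.345), and without P21 non-neuron replicate 1 it was -0.70 (adjusted p = 0.0205). Between cell types at P21 it was -0.79 ± 0.32 (adjusted p = 0.0559). That value passed the threshold in 8 of 12 other settings and without P21 non-neuron replicate 4 (-0.91, adjusted p = 0.0352), and it was -0.43 (adjusted p = 0.218) without P21 non-neuron replicate 1.

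Nnat, which encodes a small membrane proteolipid active from the paternal copy, fell slightly. Its 1971-bp interval, chr2:157384037-157386008, had 5.17, 5.97, 4.55, 8.20 and 6.04 CPM in P0 neurons and 3.41, 3.94, 4.28, 3.94 and 4.50 CPM in P21 neurons, with no overlap. The log2 fold change was -0.57 ± 0.21 (edgeR adjusted p = 0.0184). The call was lost without P0 neuron replicate 4 (-0.44, adjusted p = 0.0867), with P0 replicates 1 to 3 only (-0.39, adjusted p = 0.181) and with library totals as the only scaling (-0.38, adjusted p = 0.134). In non-neurons, at 5.89 ± 0.76 and 4.25 ± 1.04 CPM, it was -0.47 ± 0.21 (adjusted p = 0.0557), and without P0 non-neuron replicate 5 or P21 non-neuron replicate 2 each left out alone, it was called (adjusted p = 0.0428 and 0.0244), as in 6 of 12 other settings.

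Grb10 encodes an adaptor protein that restrains insulin and growth factor signalling, and it is active from the maternal copy in most tissues and from the paternal copy in neurons. The 316-bp interval chr11:11928195-11928511 lay just beside the control region as placed and averaged 38.1 CPM, above 87.3% of 4153 intervals of like length and 70.1% of the tested ones. P0 neurons had 44.3, 34.5, 40.1, 34.7 and 25.7 CPM and P21 neurons 43.1, 27.3, 35.7, 28.9 and 27.2. P0 non-neurons had 40.0, 30.7, 38.8, 39.7 and 33.3 CPM and P21 non-neurons 57.1, 41.7, 46.5, 55.6 and 37.7, so that the P21 non-neurons were highest on average. The interval rose with age in non-neurons (log2 fold change 0.38 ± 0.14, edgeR adjusted p = 0.0163), a call that was lost without P0 non-neuron replicate 2, P21 non-neuron replicate 1 or P21 non-neuron replicate 4 (adjusted p = 0.0544, 0.0614 and 0.0558). In neurons it was at -0.14 ± 0.14 and not called.

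The remaining Grb10 intervals form a chain of 4 that share cut sites, 8262 bp from the 316-bp interval. The first 3 of them, chr11:11936773-11937002, chr11:11937002-11937632 and chr11:11937632-11937843, held 0, 7 and 0 reads over all 20 libraries, and the 7 reads fell in 2 P0 non-neuron libraries. The fourth, the 783-bp interval chr11:11937843-11938626, had 6 to 36 reads per library. In neurons it rose from 1.38, 1.64, 1.05, 2.05 and 1.06 CPM to 4.04, 3.15, 3.67, 3.28 and 2.81 CPM, with no overlap (log2 fold change 1.23 ± 0.31, edgeR adjusted p = 0.000784). In non-neurons it had 2.13 ± 0.55 CPM at P0 and 2.11 ± 0.82 at P21 (-0.02 ± 0.31). The difference between these age changes was the only interaction called among the 18 intervals, at 1.25 ± 0.44 (adjusted p = 0.0484), against 14.1% of all tested intervals (10.9% higher and 3.24% lower). Between cell types at P21 the 783-bp interval was at 0.69 ± 0.28 (adjusted p = 0.0518), and it was called without P21 neuron replicate 5, P21 non-neuron replicate 1 or P21 non-neuron replicate 2 (adjusted p = 0.0496, 0.0282 and 0.0237). This difference was also called in 3 of 12 other settings. The interaction did not hold in 14 of the 20 fits that leave out 1 library (adjusted p up to 0.113) or in 5 of 12 other settings, among them P0 replicates 1 to 3 only (1.08, adjusted p = 0.208).

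**Figure D4:**
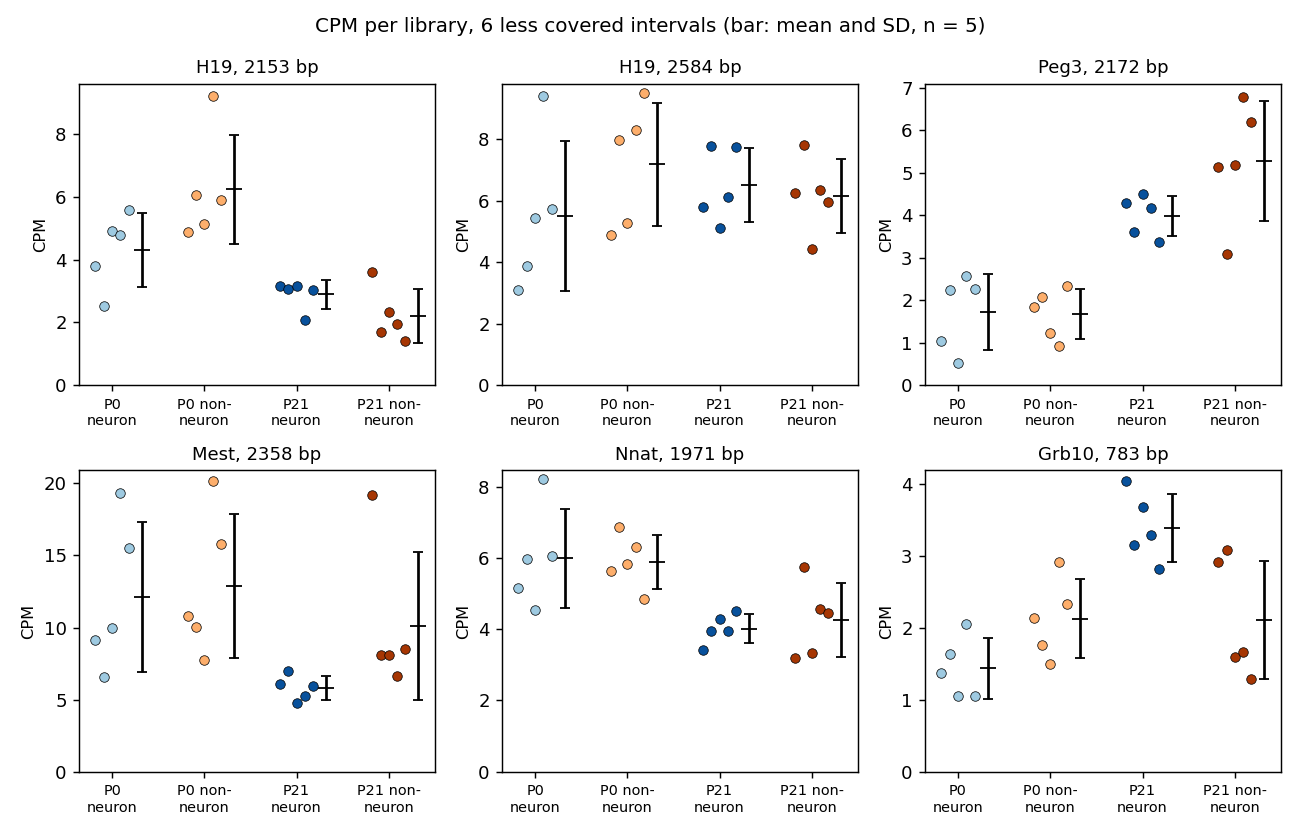
CPM of each library (points) in 6 less covered intervals by group, with the mean and SD (n = 5) beside each group and axes from 0. Peg3 lies higher at P21 in both cell types, the 2153-bp H19 interval lower at P21 in non-neurons, Mest spreads most, and the 783-bp Grb10 interval is higher at P21 in neurons.

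In all, age changes were called at 9 of the 18 tested intervals in neurons (2 higher and 7 lower at P21; 57.3% of all tested intervals, 31% higher and 26.3% lower) and at 8 in non-neurons (2 higher and 6 lower; 54.3%, 28.5% and 25.8%). The share called was not above the background in either. Groups did not overlap at 7 and 5 of the 18, against 41.6% and 35.5% of all tested intervals. The median log2 fold change with age was -0.46 in neurons and -0.41 in non-neurons, against 0.06 and 0.03 over all tested intervals. Of the lower calls, 5 in each cell type lay at Gnas, where some neighbours share cut sites. Other control regions were read from 9 windows placed in the same way, of which 2 held an interval (Zrsr1 and Mcts2/H13) and 1 interval was tested. That interval, chr2:152512588-152513345 in the Mcts2/H13 window, went from 358 ± 19 to 201 ± 12.5 CPM in neurons and from 386 ± 24.5 to 273 ± 18.6 CPM in non-neurons (P0 to P21, mean ± SD of 5 libraries each). It fell with age by 0.84 and 0.50 on the log2 scale (edgeR adjusted p = 3.37e-12 and 6.06e-07).

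At P21 neurons and non-neurons differed at 6 of the 18 intervals (35.8% of all tested intervals), and all 6 were lower in neurons (15% of all tested intervals were lower and 20.8% higher). They were 5 Gnas intervals, some of which share cut sites and are not separate counts, and the 316-bp Grb10 interval. The 398-bp and 206-bp Nespas-Gnasxl intervals did not overlap between cell types, 2 of 18 against 23.8% of all tested intervals, with log2 fold changes of -0.57 ± 0.11 (edgeR adjusted p = 6.91e-05) and -0.59 ± 0.12 (adjusted p = 0.000122). The 955-bp interval was at -0.36 ± 0.10 (adjusted p = 0.00521). In the Nesp region the 444-bp interval was at -0.44 ± 0.10 (adjusted p = 0.000697), and the 2587-bp interval at -0.50 ± 0.18 (adjusted p = 0.0252). The exon 1A interval of 942 bp was at -0.20 ± 0.14 and not called. With upper-quartile factors, 1 of 12 other settings, it was called lower in neurons (-0.40, edgeR adjusted p = 0.0172). The Grb10 interval stood at 32.5 ± 6.91 CPM in P21 neurons against 47.7 ± 8.51 CPM in the other fraction (SD, n = 5 each), a log2 difference of -0.56 ± 0.13 (edgeR adjusted p = 0.000951).

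The median difference at P21 was -0.42, against -0.06 over all tested intervals, with 11 of the 18 intervals at Gnas. P21 neuron libraries were deeper than P21 non-neuron libraries, and the part of this in the differences was not tested beyond the scalings tried. For the 180-bp Gnas interval the difference at P21 was -0.71 ± 0.41, called without P21 non-neuron replicate 5 only (-0.99, adjusted p = 0.0457). The 2587-bp call was lost without P21 neuron replicates 2 or 5 or P21 non-neuron replicates 3 or 5, each left out alone (adjusted p = 0.0875, 0.0563, 0.0891 and 0.0743), and with the length trend removed (0.0567). The Mcts2/H13 interval was lower in P21 neurons too (-0.44 ± 0.08, edgeR adjusted p = 6.91e-06), and its interaction was -0.34 ± 0.11 (adjusted p = 0.0267). For the 398-bp Gnas interval the interaction was -0.35 ± 0.16 (adjusted p = 0.152) and for the 316-bp Grb10 interval -0.53 ± 0.19 (adjusted p = 0.0627). Neither passed the threshold in this fit, and they did in 5 and 6 of 12 other settings. For the Grb10 interval P0 replicates 1 to 3 only was one of these (-0.67, adjusted p = 0.0375).

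**Figure D5:**
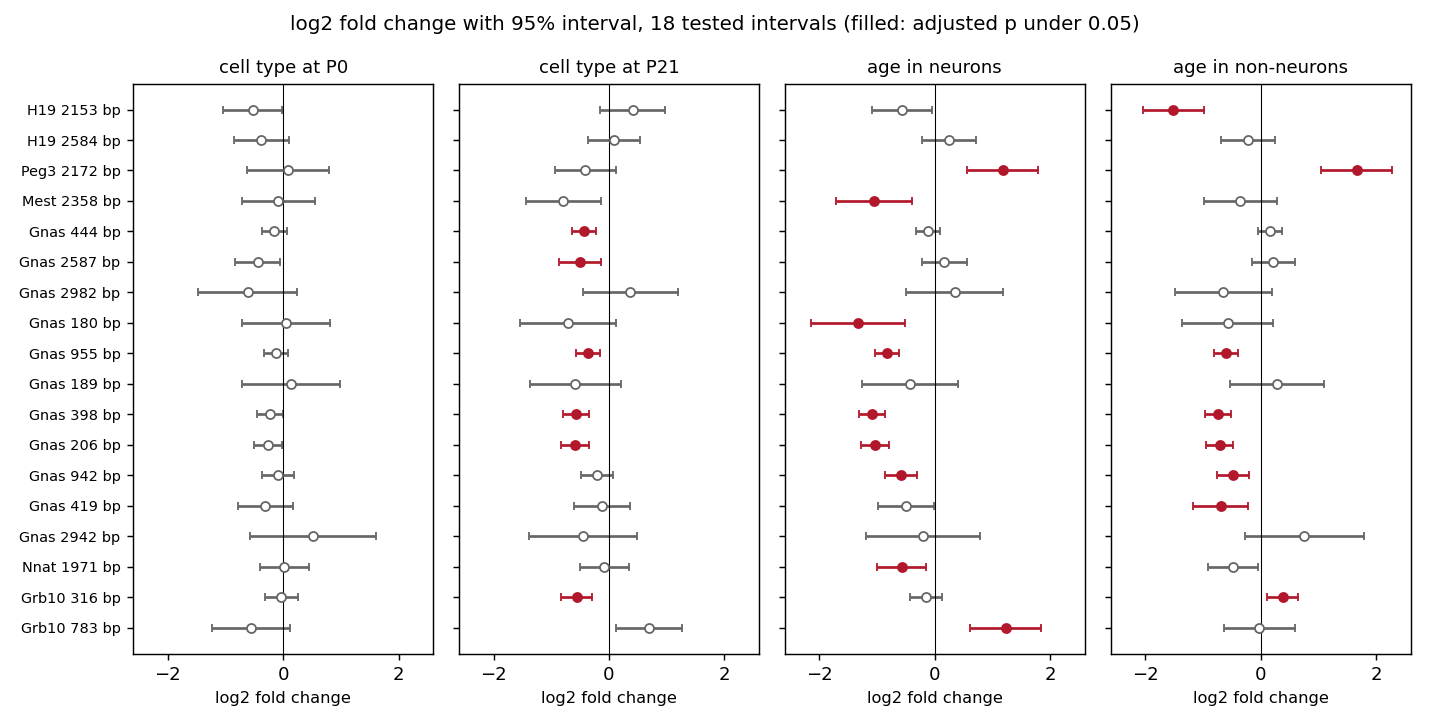
Log2 fold change (points) with its 95% interval (bars) for the 18 tested intervals, named by locus and length, in the 4 comparisons; values above 0 are higher in neurons (left 2 panels) or at P21 (right 2 panels), and filled points have an adjusted p under 0.05. The first panel has no filled point, the second has 6, all below 0, and the age panels have 9 and 8, with Peg3 above 0 in both.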

How the data were processed

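Deposited values are raw read counts for each stretch between neighbouring SmaI/XmaI sites on mm9; whole numbers and unequal column sums show this. FastQC 0.10.1, cutadapt and Bowtie 0.12.9 are named per the submitters' processing notes. The counting step and the handling of multi-mapping reads are "not given in the sources used here". Column names give age, a letter for cell type (N, or G for glia) and replicate number, and were matched to libraries by these.

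Intervals were kept with filterByExpr (minimum count 10, total 15), leaving 26679. With TMM factors, edgeR 4.0.16 (glmQLFit, robust, R 4.3.3) estimated 4 group means from the 20 libraries together. Contrasts were tested with glmQLFTest and adjusted by Benjamini-Hochberg over all tested intervals. Standard errors are the log2 fold change divided by the square root of F. The functions were tested on simulated data. Ratios were compared with exact permutation tests (scipy 1.17.1), and plots drawn with matplotlib 3.10.9.

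Named in full were, per locus, the most covered interval, the one with the largest called change in each comparison and any with a called interaction. Members and lists were chosen with earlier results of these data known. Alternatives were RLE, upper-quartile and total scaling, no filter or at least 20 reads in 5 libraries, DESeq2 1.42.0, limma-voom (limma 3.58.1), only the groups compared, a replicate block, removal of the length trend (lowess, span 0.2) and leaving out each library. A cyclic loess correction, P0 replicates 1 to 3 only, a block within each age and the ratios were added after the data were seen. Libraries were treated as independent, and p-values measure the spread between them. Labels do not say whether same-numbered neuron and non-neuron libraries come from the same pool. Reads carry no molecular identifiers, so floors cover counting error only.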

Additional observations from a re-analysis of the deposited data

Results flagged for a closer look

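Of 72 groups of 5 values (18 tested intervals in 4 groups), 8 had a highest or lowest library far from the other 4, where chance gives about 1 in 20. In the 398-bp Gnas interval, P0 neuron replicate 3 stood at 283 CPM above 203 to 216, and P21 neuron replicate 2 at 77.8 CPM below 107 to 118. P21 neuron replicate 2 was also low in the 206-bp Gnas interval, at 19.9 CPM below 26.7 to 28.1, which shares a cut site with it. In Mest, P21 non-neuron replicate 1 stood at 19.2 CPM above 6.64 to 8.54. In the 2153-bp H19 interval, P0 non-neuron replicate 4 stood at 9.22 CPM above 4.87 to 6.07 and P21 neuron replicate 4 at 2.08 CPM below 3.04 to 3.16. P21 neuron replicate 5 had 4.05 CPM in the 2982-bp Gnas interval, above 1.40 to 1.77, and P0 neuron replicate 2 had 4.48 CPM in the 419-bp Gnas interval, below 5.51 to 5.81. The age change of the 783-bp Grb10 interval was called different between cell types, with an interaction of 1.25 on the log2 scale (edgeR adjusted p = 0.0484), a call lost in 14 of 20 fits without 1 library and in 5 of 12 other settings.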

How the results depend on the processing

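Counts of called intervals of these loci stayed within 1.5-fold for cell type at P21 and for age in both cell types under every setting run. The number tested was 18, except 20 with no filter, 14 with at least 20 reads in 5 libraries, and 16 or 17 with only the groups compared. Leaving out 1 library gave 5 to 7, 8 to 10 and 7 to 9 there, and 0 throughout for cell type at P0. At P0 the count was 1 with library totals only, 1 with upper-quartile factors, 2 with the cyclic loess correction and 2 with a replicate block within each age. For the interaction it was 2 with library totals only, 3 with upper-quartile factors, 0 with no filter, 0 with the length trend removed, 3 with the cyclic loess correction, 3 with the replicate block, 4 with the replicate block within each age, and 0 to 2 without 1 library. The 444-bp Nesp interval turned direction with age in neurons when the length trend was removed (0.18 on the log2 scale). The cause was not tested. Of 1072 log2 fold changes of the tested intervals under other settings, 1004 kept their call, and of 1080 without 1 library 1039 did. Library totals shifted the median of all tested intervals by 0.20 and 0.22 in the age comparisons, and upper-quartile factors by -0.19 for cell type at P21. Same-numbered libraries correlated over 0.1 in some pairs but in no comparison in all 5 (r from 0.0451 to 0.21 for cell type at P0, -0.007 to 0.322 at P21, -0.0672 to 0.105 and -0.0831 to 0.123 for age). Libraries of unlike age come from different animals, so only the cell type values bear on shared pools, and at P0 all 5 were above 0. Whether same-numbered fractions of an age share a pool stayed unknown, so the numbers were not taken to pair samples in the main fit. With the replicate block the interactions of the 398-bp Gnas and 316-bp Grb10 intervals passed (-0.35 and -0.52, edgeR adjusted p = 0.0209 and 0.00496), as with the replicate block within each age (-0.35 and -0.53, adjusted p = 0.00164 and 0.00337). Of all calls, the share higher moved from 70.7% to 51.1% at P0, from 58.1% to 32.5% at P21 and from 77.1% to 56.2% for the interaction with upper-quartile factors. With library totals only it moved to 59% and 45.9% for cell type at P0 and P21, and from 54.1% to 69% and from 52.5% to 70.6% for age in neurons and non-neurons. Intervals with 3 to 15 reads per library, such as Peg3 at P0, limit what could be detected.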
